A study of Mus musculus with 6 samples.

Results

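The genes described here load peptides onto major histocompatibility complex (MHC) class I molecules or cut the peptides that are loaded. They were taken as a fixed list of 10 symbols: the class I heavy chain genes H2-K1 and H2-D1, the light chain gene B2m, the peptide transporter genes Tap1 and Tap2, the tapasin gene Tapbp, the transcriptional coactivator gene Nlrc5, and the immunoproteasome subunit genes Psmb8, Psmb9 and Psmb10. All 10 were among the 24062 genes counted, and 9 were among the 13185 genes that had enough reads to be tested. Psmb8 was not. The cells were NIH3T3, an established mouse embryonic fibroblast line, to ask how the histone chaperone and elongation factor SPT6 bears on transcription after interferon beta (IFN-beta). Every culture received siRNA 48 h before the time point, either a negative control siRNA or 1 siRNA against SPT6. There were 4 groups in 6 libraries: control siRNA untreated (1 library), SPT6 siRNA untreated (1 library), control siRNA with IFN-beta at 100 units/ml for 4 h (2 libraries, replicates 1 and 2) and SPT6 siRNA with the same IFN-beta treatment (2 libraries, replicates 1 and 2). The untreated libraries carry the time 0 h. No library without IFN-beta at 4 h is named, so the 4 h and IFN-beta itself cannot be told apart. Both untreated libraries are labelled replicate 1. Replicate 2 with IFN-beta is therefore set against an untreated library of the other number. In its differences from the untreated library, replicate number and IFN-beta cannot be told apart. The labels do not say whether replicates were separate cultures, so the p-values here cover the spread among these libraries alone, which may be technical.

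Class I molecules show short peptides from a cell's own proteins to CD8+ T cells. The peptides are cut in the cytosol by the proteasome, pumped into the endoplasmic reticulum by the TAP1-TAP2 transporter, and loaded with the help of tapasin onto a heavy chain paired with beta-2 microglobulin. Interferons raise many of these genes in fibroblasts, partly through the factors STAT2, IRF9 and IRF1, and NLRC5 acts with factors bound at class I promoters. In cells given interferon the catalytic subunits encoded by Psmb8, Psmb9 and Psmb10 replace those encoded by Psmb5, Psmb6 and Psmb7 in newly made proteasomes.

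A total of 7 of the 10 genes lie on chromosome 17 (GRCm38, GENCODE positions; all are protein coding). Tapbp spans chr17:33915899-33929292 on the plus strand and H2-K1 spans chr17:33996017-34000347 on the minus strand. Then follow Psmb9 at chr17:34181987-34187764 (minus), Tap1 at chr17:34187553-34197225 (plus), Psmb8 at chr17:34197721-34201454 (plus) and Tap2 at chr17:34203527-34216321 (plus), so that Psmb8 sits between the transporter genes. H2-D1 spans chr17:35262730-35267499 on the plus strand. Elsewhere, B2m spans chr2:122147686-122153083 (plus), Nlrc5 chr8:94434356-94527272 (plus) and Psmb10 chr8:105935735-105938444 (minus).

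Promoter windows of 300 bases, 250 before and 50 after a RefSeq start (GRCm38.p6), were listed for 8 of the 10 genes; Nlrc5 and Tap2 had no entry. Both strands were searched for 3 motifs: the core of the interferon-stimulated response element (GAAA, any 2 bases, GAAA), the gamma-activated site (TTCNNNGAA) and the CCAAT box (CCAAT). A match describes letters only. Elements that depart from these letters were not searched for, so a window without a match may still hold one. The interferon-stimulated core was found in 1 of the 8 genes (B2m), against 3.44% of all 32851 windows of this length. The gamma-activated site was found in 1 (Psmb8), against 8.3% of windows. The CCAAT box was found in 6, against 37.4% of windows. The Tap1 and Psmb9 matches are the same bases read on opposite strands, so these 6 are not separate finds. H2-K1 had 2 windows and was counted once. Below are the 250 bases before the RefSeq start, 5′ to 3′ on the gene's strand, for 5 of the 8 genes. For the heavy chain genes, H2-K1 at chr17:34000348-34000597 (minus) and H2-D1 at chr17:35262844-35263093 (plus), capitals mark the longest run of bases the windows share, 47 bases that begin 141 bases before the H2-K1 start and 201 bases before the H2-D1 start. Over the 300 bases the windows were 89.5% identical in the aligned positions. For B2m, chr2:122147437-122147686 (plus), capitals mark the interferon-stimulated core, which begins at position -139 from the start. For Tap1, chr17:34187306-34187555 (plus), they mark the CCAAT box at position -222. For Psmb8, chr17:34197945-34198194 (plus), they mark the gamma-activated site at position -97. The Psmb8, H2-D1 and Tapbp windows lie within the GENCODE spans of these genes, since their RefSeq starts lie further in. The Tap1 window shares 275 bases with the Psmb9 window on the other strand, and the RefSeq starts of these genes lie 226 bases apart.
H2-K1: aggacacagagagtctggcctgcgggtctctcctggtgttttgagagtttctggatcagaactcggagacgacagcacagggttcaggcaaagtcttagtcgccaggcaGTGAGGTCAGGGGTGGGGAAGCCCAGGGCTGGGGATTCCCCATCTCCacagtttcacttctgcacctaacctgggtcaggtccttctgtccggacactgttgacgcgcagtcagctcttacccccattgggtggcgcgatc
H2-D1: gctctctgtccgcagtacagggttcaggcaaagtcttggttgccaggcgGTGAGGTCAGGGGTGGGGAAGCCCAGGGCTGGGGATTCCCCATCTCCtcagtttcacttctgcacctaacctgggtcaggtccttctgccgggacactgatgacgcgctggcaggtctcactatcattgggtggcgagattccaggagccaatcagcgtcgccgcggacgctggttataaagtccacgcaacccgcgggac
B2m: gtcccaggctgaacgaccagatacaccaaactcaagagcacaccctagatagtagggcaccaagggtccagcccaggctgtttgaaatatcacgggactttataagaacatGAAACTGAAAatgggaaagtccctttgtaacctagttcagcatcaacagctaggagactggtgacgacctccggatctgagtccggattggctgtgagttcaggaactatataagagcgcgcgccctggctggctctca
Tap1: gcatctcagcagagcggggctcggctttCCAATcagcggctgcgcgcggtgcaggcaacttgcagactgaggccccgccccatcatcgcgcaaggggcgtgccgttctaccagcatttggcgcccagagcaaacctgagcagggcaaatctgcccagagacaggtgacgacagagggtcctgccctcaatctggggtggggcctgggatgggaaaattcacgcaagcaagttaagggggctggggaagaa
Psmb8: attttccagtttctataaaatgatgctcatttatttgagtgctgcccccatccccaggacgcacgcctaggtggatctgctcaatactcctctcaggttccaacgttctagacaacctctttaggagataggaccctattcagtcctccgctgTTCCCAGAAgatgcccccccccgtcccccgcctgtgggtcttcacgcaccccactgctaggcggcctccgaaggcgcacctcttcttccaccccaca

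Counts assigned to genes ran from 7935961 to 17596498 per library, and the SPT6 siRNA library was the shallower one within each treatment and replicate number. In what follows, CPM means a gene's counts per 1000000 counts in genes, with library sizes scaled by edgeR's TMM factors. Of the targeted gene, Supt6, the untreated control library held 175 CPM and the untreated SPT6 siRNA library 101 CPM. The control libraries with IFN-beta held 177 and 189 CPM and the SPT6 siRNA libraries 108 and 88.3 CPM, so every SPT6 siRNA library was below every control library and Supt6 RNA remained in all of them (log2 difference with IFN-beta -0.90 ± 0.18 SE, adjusted p = 0.247 in edgeR's quasi-likelihood test). Fibroblast markers (12 genes, led by Fn1) summed to 15400 to 24800 CPM and were lower in each SPT6 siRNA library than in its control counterpart. Markers of professional antigen presenting cells (11 of 12 in the table, Flt3 at 0 and Cd68 highest) summed to 10.2 and 8.72 CPM in the control libraries with IFN-beta and to 12.8 to 20 CPM in the other libraries. Lymphocyte markers summed to at most 1.74 CPM, with Cd3e, Ncr1 and Cd2 at 0. Epithelial markers summed to at most 2.78 CPM and endothelial markers to at most 5.91 CPM. The part of these markers in the results below was not tested. In bulk RNA, fewer cells of a type and less RNA per cell cannot be told apart.

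Without IFN-beta the genes of the peptide-receiving complex were the abundant ones. B2m, which encodes the light chain shared by all class I molecules, was the highest on a per-length scale (CPM per kilobase of the annotated transcript), at 383 with control siRNA and 404 with SPT6 siRNA. Tapbp stood at 51.6 and 63.8 CPM per kilobase, H2-D1 at 42.2 and 68.2, and H2-K1 at 23 and 20.9. The transporter and inducible proteasome genes came after these. Tap2 stood at 10.7 and 13, Psmb10 at 6.26 and 9.14, Tap1 at 6.01 and 6.05, and Psmb9 at 2.25 and 1.86 CPM per kilobase. The coactivator gene Nlrc5 stood at 0.358 and 0.38 CPM per kilobase, and Psmb8 had no read. These untreated levels rest on 1 library each, so the order of near neighbours has no replicate check.

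With IFN-beta and control siRNA, 4 genes stood several-fold above the untreated library in both replicates: Tap1, Psmb10, Psmb9 and Nlrc5. Tap1, the transporter subunit, stood at 17.7 CPM in the untreated control library and at 185 and 102 CPM in replicates 1 and 2 with IFN-beta. Both treated libraries were far above the untreated one, and the mean was 143 ± 58.8 CPM (SD, n = 2). The fitted log2 difference was 3.01 ± 0.52 (SE), or 8.06-fold, with an adjusted p of 0.202 in edgeR's test over all genes. Its partner Tap2 stood at 36.8 CPM without IFN-beta and at 87.0 and 50.4 CPM with it. Again both treated libraries were above the untreated one, but by less (log2 0.90 ± 0.44, edgeR adjusted p = 0.649). Per length, Tap2 was 1.78 times Tap1 in the untreated control library and 2.14 times Tap1 in the untreated SPT6 siRNA library. With IFN-beta the order turned: Tap2 was 0.404 and 0.425 times Tap1 with control siRNA, and 0.428 and 0.425 times Tap1 with SPT6 siRNA. The 4 treated libraries thus held the 2 transporter subunits in nearly one ratio, although their Tap1 levels ran from 75.4 to 185 CPM.

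Nlrc5, the coactivator of class I promoters, was the scarcest tested gene of the list per length in each library. It had 33 counts in the untreated control library and 214 and 181 counts with IFN-beta, or 2.71 CPM against 16.1 and 10.7 CPM. The treated libraries lay well above the untreated one (log2 2.30 ± 0.40, 4.93-fold, edgeR adjusted p = 0.168). Tapbp, whose product tapasin bridges the transporter and the empty heavy chain, stood at 150 CPM without IFN-beta and at 273 and 188 CPM with it. Both replicates were above the untreated library, with a log2 difference of 0.62 ± 0.27 (edgeR adjusted p = 0.613).

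The heavy chain genes had the smallest differences of the 9. H2-K1 stood at 37.2 CPM in the untreated control library and at 60.0 and 35.0 CPM with IFN-beta, so the untreated value lay between the replicates (log2 0.35 ± 0.41, edgeR adjusted p = 0.836). H2-D1 stood at 88.8 CPM without IFN-beta and at 133 and 95.1 CPM with it. Both replicates were above the untreated library, replicate 2 only by 0.10 on the log2 scale (fitted log2 0.36 ± 0.27, edgeR adjusted p = 0.753). B2m stood at 329 CPM without IFN-beta and at 600 and 429 CPM with it, above the untreated library in both (log2 0.64 ± 0.29, edgeR adjusted p = 0.62). Without replicate 1 of the control group the H2-K1 difference turned to -0.10.

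Reads of the heavy chain genes are partly exchangeable. The coding sequences of H2-K1 and H2-D1 were 91.5% identical, and 8.79% of 50-base windows of the H2-K1 transcript and 14.3% of those of H2-D1 occurred in another gene's transcript, most often in H2-D1 and H2-Q1. The reference is of strain C57BL/6J and NIH3T3 cells came from Swiss mice. What strain differences in class I heavy chains did to these counts was not tested. For Tapbp 21% of windows, for Tap2 12.6%, for Psmb9 12.5%, for Tap1 6.47% and for Psmb8 5.83% were shared, while B2m, Nlrc5 and Psmb10 shared none. Most of these were shared with genes whose exons overlap on the opposite strand. For Tapbp 541 of 599 were shared with Gm19412, for Tap2 336 of 427 with Gm15821 and for Psmb8 all 92 with Gm20496. The symbols of these Gm genes are not in the count table. Psmb9 and Tap1 shared 163 windows with each other, of 163 and 188. Such shares alone do not show exchange of reads between separate loci. The exons of Tap1 and Psmb9 overlap by 212 bases on opposite strands. Whether the counting used strand was not given in the sources used here. Reads in that stretch cannot be assigned to one gene.

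The 3 inducible catalytic subunits differed widely in level. Psmb10, which encodes the trypsin-like subunit of the immunoproteasome, stood at 8.21 CPM in the untreated control library and at 65.9 and 34.9 CPM with IFN-beta. Both replicates were several-fold above the untreated value (log2 2.61 ± 0.58, 6.12-fold, edgeR adjusted p = 0.345). Psmb9, which takes the place of Psmb6, stood at 3.04 CPM without IFN-beta and at 21.2 and 10.0 CPM with it, again higher in both (log2 2.35 ± 0.73, 5.11-fold, edgeR adjusted p = 0.505). Psmb8, which takes the place of Psmb5, had 0 counts in both untreated libraries, 5 and 8 counts in the control libraries with IFN-beta, and 4 and 7 counts in the SPT6 siRNA libraries with IFN-beta. All 4 treated libraries had reads and neither untreated one did. A floor of 3 counts, set for a count of 0, is 0.246 CPM in the untreated control library and 0.36 CPM in the untreated SPT6 siRNA library. The exact 95% upper limits of these 0 counts were higher, at 0.303 and 0.442 CPM. The exact 95% counting intervals of the treated libraries began at 0.122 and 0.205 CPM under control siRNA, against 0.111 and 0.245 CPM under SPT6 siRNA, below those limits. No single treated library was therefore clear of its limit by counting error, and the counts were too few for the test. With the counts of both replicates summed, the IFN-beta level was 1.75-fold the floor under control siRNA and 1.44-fold under SPT6 siRNA. Whether these folds exceed counting error was not tested. The annotated Psmb8 exons share 498 bases with the antisense gene Gm20496, whose symbol is not in the count table.

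Set against the constitutive subunits per length, the inducible ones remained the minority in each library. Psmb10 came to 5.44% of Psmb7 in the untreated control library and to 39.2% and 17.3% with IFN-beta. With SPT6 siRNA it came to 6.45% untreated and to 22.3% and 13.6% with IFN-beta. Psmb9 came to 1.49% of Psmb6 untreated and to 9.04% and 3.28% with IFN-beta under control siRNA. Under SPT6 siRNA it came to 1.27% untreated and to 6.05% and 3.37% with IFN-beta. For both pairs every treated library exceeded both untreated ones, and the siRNA groups overlapped. Psmb8 came to at most 0.537% of Psmb5. The constitutive genes also stood above the untreated library in both control replicates with IFN-beta, by less than Psmb9 and Psmb10, and Psmb5 was at 48.0 CPM untreated and 56.6 and 77.3 CPM after IFN-beta. The log2 difference was 0.48 ± 0.26 for Psmb5, 0.40 ± 0.26 for Psmb6 and 0.29 ± 0.22 for Psmb7, none past the edgeR threshold (adjusted p 0.666 to 0.747). The 3 pairs share 62.5% to 65.9% of aligned coding bases.

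**Figure D1:**
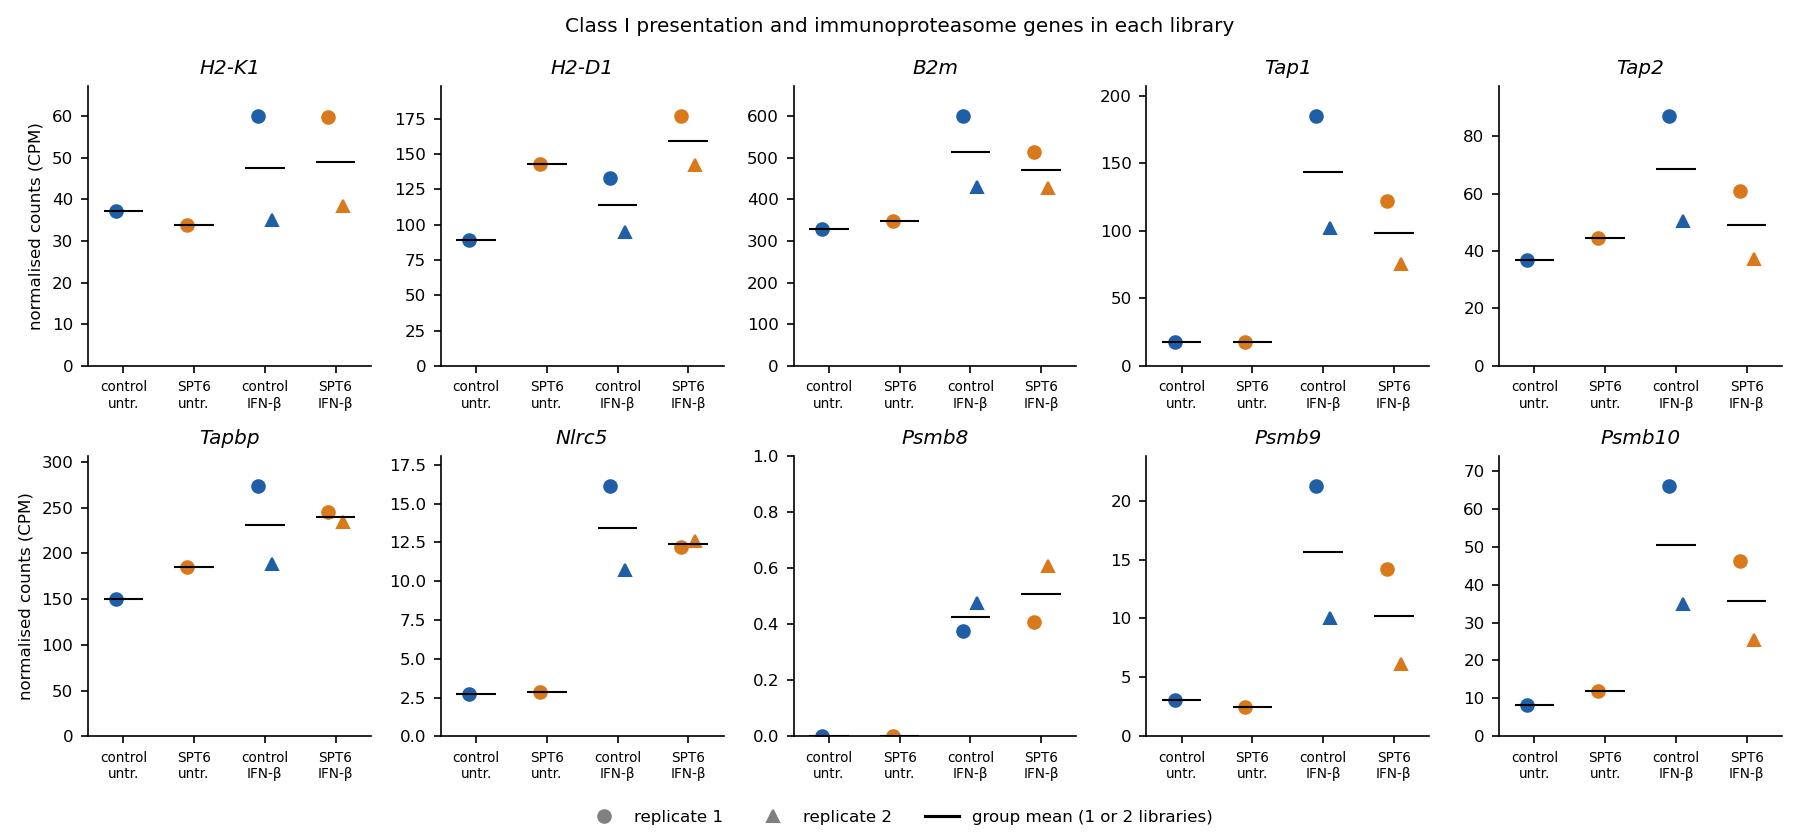
Normalised counts (CPM, y axis, each panel with its own scale from 0) of the 10 genes in the 6 libraries, grouped on the x axis by siRNA and treatment; circles are replicate 1, triangles replicate 2 and bars group means. Tap1 stands at 17.7 and 17.9 CPM untreated and at 75.4 to 185 CPM with IFN-beta, while H2-K1 with control siRNA stands at 37.2 CPM untreated, between its replicates with IFN-beta.

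**Figure D2:**
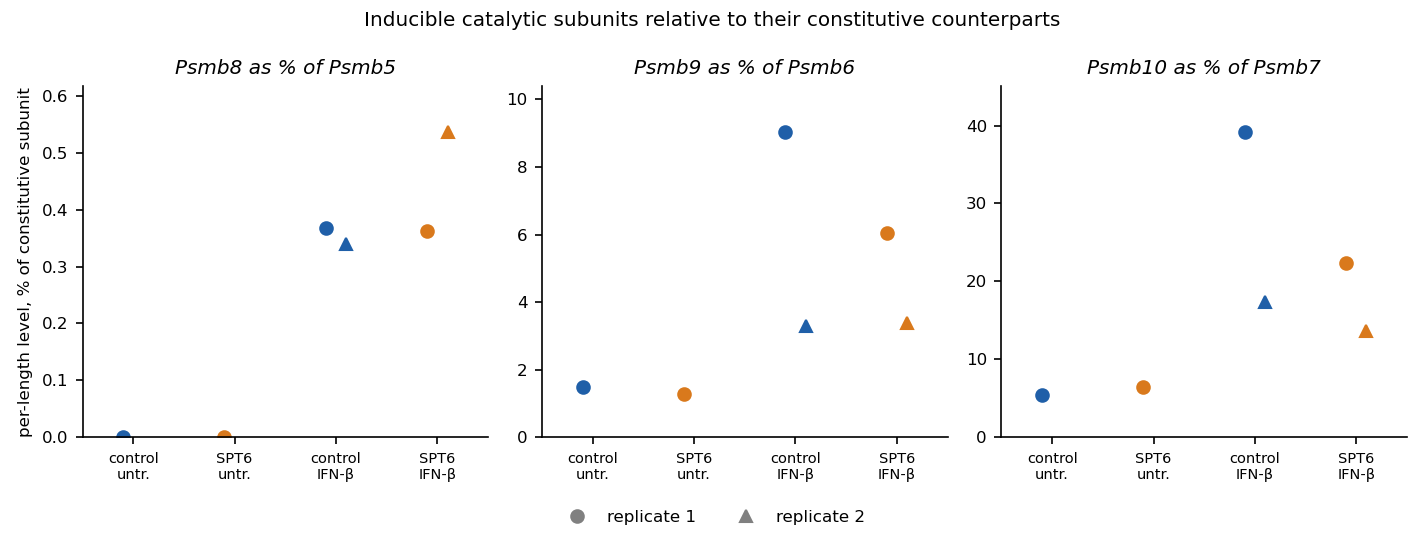
Level per kilobase of each inducible catalytic subunit as a percentage of its constitutive counterpart (y axis, each panel with its own scale from 0) in the 6 libraries (x axis: siRNA and treatment; circles replicate 1, triangles replicate 2). Psmb10 reaches 39.2% of Psmb7 and Psmb9 reaches 9.04% of Psmb6 in replicate 1 with control siRNA and IFN-beta, while Psmb8 stays at or under 0.537% of Psmb5.

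With IFN-beta the per-length order was the same in both control replicates from B2m down to Psmb8. B2m came to 598 CPM per kilobase on average, Tapbp to 79.5, H2-D1 to 54.2, Tap1 to 48.5, Psmb10 to 38.4, H2-K1 to 29.4, Tap2 to 20, Psmb9 to 11.6, Nlrc5 to 1.77 and Psmb8 to 0.261. The ranges of the 2 libraries overlapped for each neighbouring pair from H2-D1 through Tap1, Psmb10, H2-K1 and Tap2 to Psmb9, so the levels of these neighbours lay within the spread of the replicates, although each pair kept its order within both. Compared with the untreated control library, Tap1 went from the seventh place to the fourth and Psmb10 from the sixth to the fifth, and both passed H2-K1.

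In the edgeR fit over all genes, 0 of the 9 tested members were called higher with IFN-beta under control siRNA at an adjusted p under 0.05, against 0.137% of all genes tested (18 genes). At an unadjusted p under 0.05, 4 of 9 were higher (Tap1, Nlrc5, Psmb9 and Psmb10), against 5.29% of genes. DESeq2 called those 4 (1.55% of genes called) and limma-voom none (0.0379%). By direction alone, 9 of 9 fitted differences were above 0 (49.4% of genes), with a median of 0.90 against -0.01 over all genes. In 8 of 9 members both treated libraries were above the untreated one (35.2% of genes), the exception being H2-K1. In 4 of 9 both were at least 2-fold above it (2.81% of genes). The spread in this fit comes from the IFN-beta groups, with 2 residual degrees of freedom, and the single untreated library is assumed to vary like them.

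Under SPT6 siRNA the same 4 genes stood at least 2-fold above the untreated library in both replicates (4 of 9, against 2.76% of genes). Tap1 stood at 17.9 CPM without IFN-beta and at 122 and 75.4 CPM with it, well apart (log2 2.46 ± 0.51, 5.52-fold, edgeR adjusted p = 0.466). Nlrc5 stood at 2.88 CPM without IFN-beta and at 12.2 and 12.6 CPM with it, with replicates close together (log2 2.11 ± 0.41, 4.31-fold, edgeR adjusted p = 0.334). Psmb9 stood at 2.52 CPM without IFN-beta and at 14.2 and 6.17 CPM with it (log2 2 ± 0.76, edgeR adjusted p = 0.83). Psmb10 stood at 12 CPM without IFN-beta and at 46.3 and 25.3 CPM with it (log2 1.58 ± 0.56, 2.98-fold, edgeR adjusted p = 0.806). In each of these the untreated value was below both treated ones. The loading genes lay closer to their untreated values. Tapbp stood at 185 CPM without IFN-beta and at 245 and 234 CPM with it (log2 0.37 ± 0.27), and B2m at 348 CPM without IFN-beta and at 513 and 427 CPM with it (log2 0.44 ± 0.28). H2-K1 stood at 33.8 CPM without IFN-beta and at 59.7 and 38.4 CPM with it (log2 0.54 ± 0.42). All 3 were above the untreated library in both replicates. Tap2, at 44.6 CPM without IFN-beta and 60.8 and 37.3 CPM with it, and H2-D1, at 143 CPM without IFN-beta and 177 and 142 CPM with it, had untreated values between the replicates. Their log2 differences were 0.14 ± 0.43 and 0.15 ± 0.27, and they turned to -0.26 and -0.02 without replicate 1 of the SPT6 siRNA group.

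edgeR called 0 of the 9 members under SPT6 siRNA (0.0455% of genes). At an unadjusted p under 0.05, 4 of 9 were higher (3.84% of genes). DESeq2 called 2, Tap1 and Nlrc5 (0.978% of genes), and limma-voom 0 (0%). Both treated libraries were above the untreated one in 7 of 9 members (34.5% of genes). The median log2 difference was 0.54, against 0.01 over all genes.

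**Figure D3:**
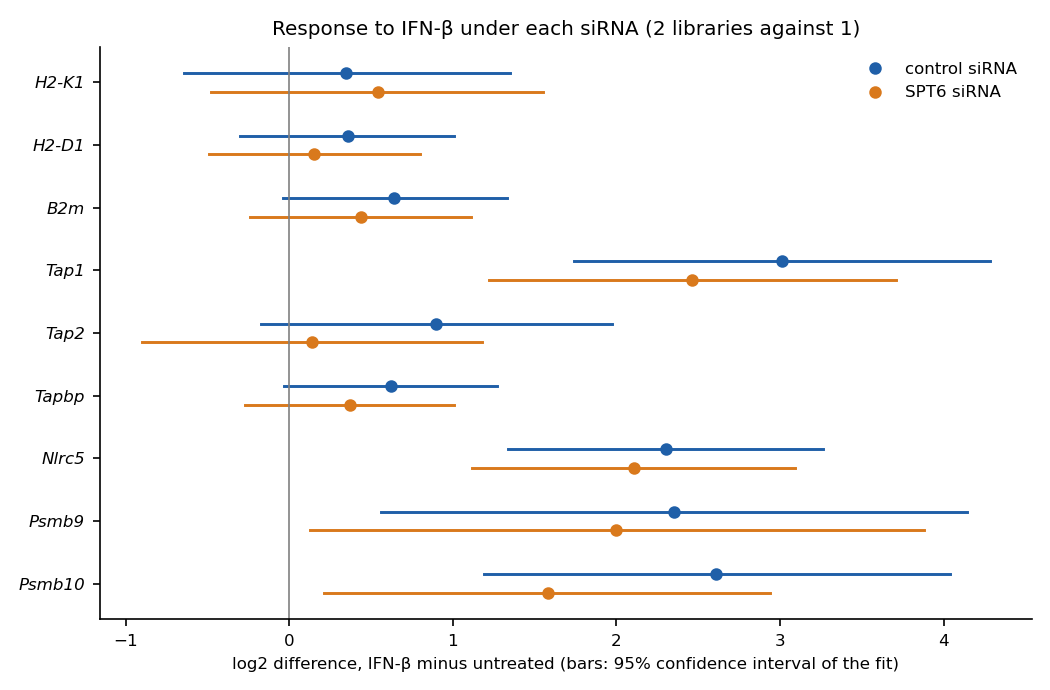
Log2 difference between IFN-beta and untreated libraries (x axis) for the 9 tested genes (y axis) under control siRNA and SPT6 siRNA, from edgeR; points are fitted values and bars 95% confidence intervals. Tap1, Nlrc5, Psmb9 and Psmb10 lie above 0 with their whole interval under both siRNAs, from 1.58 to 3.01, and the other 5 intervals include 0.

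Between the siRNA groups with IFN-beta, no member separated downwards: both SPT6 siRNA libraries were below both control libraries in 0 of 9 members (21.3% of genes). Tap1, Tap2, Psmb9 and Psmb10 had lower means with SPT6 siRNA but overlapped between groups, while Psmb8, which was not tested, averaged 0.425 CPM in the control group and 0.508 CPM in the SPT6 siRNA group. Tap1 averaged 143 ± 58.8 CPM (SD, n = 2) in the control group and 98.6 ± 32.9 CPM (n = 2) in the SPT6 siRNA group, and replicate 1 with SPT6 siRNA (122 CPM) exceeded replicate 2 with control siRNA (102 CPM). Its log2 difference was -0.54 ± 0.36 (95% interval -1.41 to 0.34, edgeR adjusted p = 0.593). Tap2 differed by -0.49 ± 0.34 (interval -1.32 to 0.35, edgeR adjusted p = 0.614), and the inducible subunits Psmb9 by -0.62 ± 0.51 (-1.88 to 0.64, edgeR adjusted p = 0.674) and Psmb10 by -0.49 ± 0.40 (-1.49 to 0.50, edgeR adjusted p = 0.67). Within replicate numbers 1 and 2 the log2 differences were -0.60 and -0.43 for Tap1, -0.51 and -0.43 for Tap2, -0.58 and -0.69 for Psmb9, and -0.51 and -0.46 for Psmb10. The fitted values moved when 1 library was left out, which leaves the groups with unmatched replicate numbers, and replicate 2 stood below replicate 1 in all 4 genes under both siRNAs. Without replicate 1 of the control group they came to -0.03 for Tap1, -0.03 for Tap2, 0.02 for Psmb9 and 0.04 for Psmb10. Without replicate 2 of the SPT6 siRNA group they came to -0.24, -0.18, -0.15 and -0.13. In the same order they came to -0.91, -0.83, -1.07 and -0.88 without replicate 2 of the control group, and to -0.94, -0.89, -1.35 and -1.01 without replicate 1 of the SPT6 siRNA group.

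The genes of the receiving complex and the coactivator lay near 0: B2m at -0.13 ± 0.23, Nlrc5 at -0.11 ± 0.28, Tapbp at 0.05 ± 0.22 and H2-K1 at 0.05 ± 0.33 on the log2 scale (edgeR adjusted p 0.854 to 0.968). Their 95% intervals ran from -0.67 to 0.41 for B2m, from -0.78 to 0.56 for Nlrc5, from -0.46 to 0.57 for Tapbp and from -0.75 to 0.85 for H2-K1. Each of these 4 values changed sign when 1 library was left out.

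H2-D1 went the other way. It stood at 133 and 95.1 CPM with control siRNA and IFN-beta and at 177 and 142 CPM with SPT6 siRNA and IFN-beta. It was the 1 member of 9 in which both SPT6 siRNA libraries were above both control libraries (22.7% of genes), and in the untreated libraries it stood at 88.8 against 143 CPM. With IFN-beta the log2 difference was 0.49 ± 0.22 (95% interval -0.04 to 1.01, edgeR adjusted p = 0.447), and it stayed above 0 without any 1 library, from 0.27 to 0.76. Relative to the light chain, H2-D1 per length came to 11.0% of B2m in the untreated control library and to 16.9% with SPT6 siRNA. With IFN-beta the share was 9.06% and 9.07% under control siRNA, against 14.1% and 13.6% under SPT6 siRNA. The 3 SPT6 siRNA libraries lay above the 3 control libraries in this share. H2-K1 showed no such split, at 4.33% to 6% of B2m with control siRNA and 4.78% to 6.19% with SPT6 siRNA. Of the 50-base windows of H2-D1, 14.3% occur in other genes, most often in H2-Q1, which had at most 10 counts in any library. Reads that did not align uniquely were left out of the counts, so this low count does not show where reads of shared windows went. The part of read sharing in the H2-D1 difference was not tested.

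edgeR called 0 of 9 members between the siRNA groups (0% of genes), and 0 of 9 had an unadjusted p under 0.05 (11.7% of genes). DESeq2 called 0 members (0.47% of genes) and limma-voom 0 (0%). These fits, like those of the IFN-beta responses above, did not take the replicate number into account. Fits that did called more genes and members, and they are given in the closing section. Of the 9 differences 6 were below 0 (52% of genes), with a median of -0.13 against -0.02 over all genes. Taken within a replicate number, SPT6 siRNA was below control in both numbers in 5 of 9 members (36.5% of genes): B2m, Tap1, Tap2, Psmb9 and Psmb10. It was above in both in 1 (33.8% of genes), H2-D1.

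The 2 untreated libraries have no replicate check, and their intervals cover counting error only. SPT6 siRNA was higher by 0.69 on the log2 scale for H2-D1 (95% counting interval 0.57 to 0.81), by 0.55 for Psmb10 (0.13 to 0.96), by 0.31 for Tapbp (0.21 to 0.40), by 0.28 for Tap2 (0.07 to 0.48) and by 0.08 for B2m (0.01 to 0.15). For H2-K1 (-0.14), Tap1 (0.01), Nlrc5 (0.09) and Psmb9 (-0.27) the interval included 0. In all, 7 of 9 members were above 0 (47.7% of genes). Over the untreated pair and both pairs with IFN-beta, H2-D1 was the 1 member above in all 3 (25.8% of genes) and Psmb9 the 1 member below in all 3 (28.3% of genes). In 4 members, B2m, Tap1, Tap2 and Psmb10, SPT6 siRNA was above control untreated and below it in both pairs with IFN-beta (8.13% of genes).

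Whether the response to IFN-beta itself differed between the siRNAs was tested as the difference of the log2 responses. Psmb10 differed by -1.04 ± 0.74, Tap2 by -0.76 ± 0.60, Tap1 by -0.55 ± 0.65, Psmb9 by -0.35 ± 1.01, Tapbp by -0.25 ± 0.37, B2m by -0.21 ± 0.39, H2-D1 by -0.20 ± 0.38, Nlrc5 by -0.19 ± 0.55 and H2-K1 by 0.19 ± 0.58. edgeR gave an adjusted p of 1 for each, and every 95% interval included 0. Of the 9 members 8 were below 0 (51% of genes), with a median of -0.25 against -0.01 over all genes. None was called by edgeR (0% of genes), DESeq2 (0%) or limma-voom (0%), and 0 of 9 had an unadjusted p under 0.05 (0.379% of genes). The 2 responses each rest on 1 untreated library, and a higher untreated value, as for Psmb10 and Tap2 with SPT6 siRNA, enters this difference in full.

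**Figure D4:**
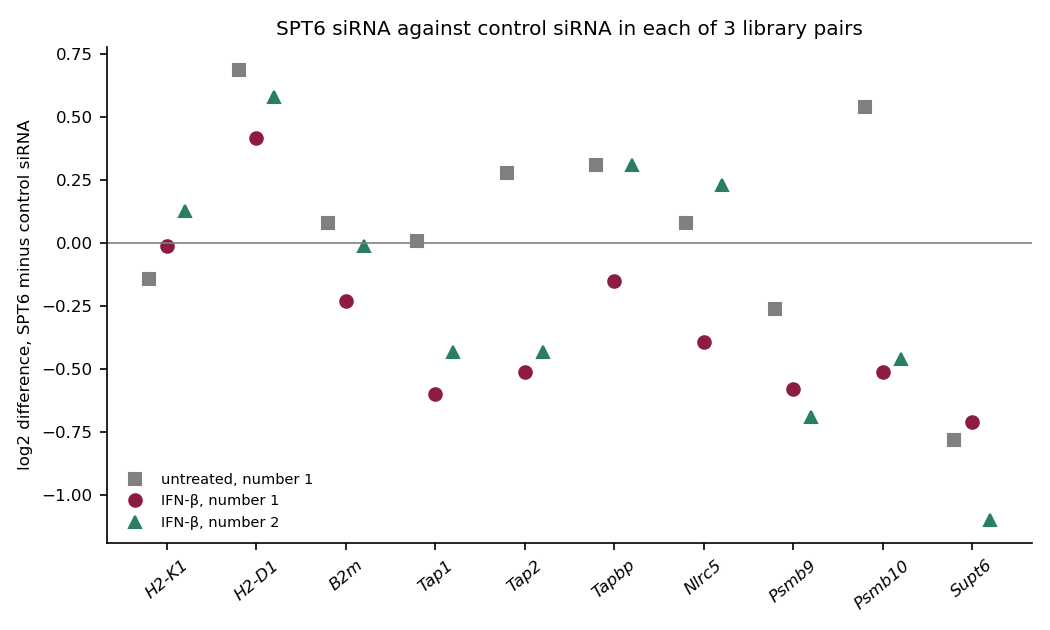
Log2 difference between SPT6 siRNA and control siRNA (y axis) for each tested gene and Supt6 (x axis) in the untreated libraries (squares) and in replicate numbers 1 (circles) and 2 (triangles) with IFN-beta. H2-D1 is above 0 in all 3 pairs, from 0.42 to 0.69, while Tap1, Tap2 and Psmb10 are below 0 with IFN-beta and above it untreated.

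The replicates with IFN-beta stood apart from each other in these genes under both siRNAs. Replicate 2 was below replicate 1 under both siRNAs in 8 of 9 members (33.1% of genes), the exception being Nlrc5, which with SPT6 siRNA stood at 12.2 and 12.6 CPM. The median difference of replicate 2 from replicate 1 was -0.78 on the log2 scale with control siRNA and -0.63 with SPT6 siRNA, against 0.02 and 0 over all genes. As a result, the median distance from the untreated library was 1.24 in replicate 1 and 0.45 in replicate 2 under control siRNA, against 0.82 and 0.34 under SPT6 siRNA. For Tap1 these distances were 3.37 and 2.51 under control siRNA, against 2.76 and 2.07 under SPT6 siRNA. For Psmb10 they were 2.98 and 2.06, then 1.93 and 1.07. Both median gaps between replicates exceeded in size the median difference between the siRNA groups (-0.13).

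Other class I and proteasome genes were described from fixed lists. Among 25 other class I heavy chain genes, 11 had enough reads, and their median difference with IFN-beta under control siRNA was 0.95 (7 above 0, none called by edgeR, 2 at an unadjusted p under 0.05). Of all 13185 genes tested, 49.4% were above 0, 0.137% were called by edgeR and 1086 had an unadjusted p under 0.05. H2-T24, a nonclassical class I gene, stood at 2.46 CPM without IFN-beta and at 29.3 and 13.8 CPM with it (log2 3.12 ± 0.69, edgeR adjusted p = 0.338). With SPT6 siRNA it stood at 2.52 CPM without IFN-beta and at 20.4 and 11.0 CPM with it, so treated libraries were above untreated ones under both siRNAs. H2-T23, which encodes the ligand Qa-1, stood at 4.85 CPM without IFN-beta and at 14.7 and 8.84 CPM with it under control siRNA (log2 1.28 ± 0.42, edgeR adjusted p = 0.512). Reads of this family are uncertain between near-identical copies.

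In the list of 10 endoplasmic reticulum loading genes the median was 0.26, with none called (0.137% of all genes). Erap1, the aminopeptidase that trims peptides to class I length, stood at 21.2 CPM without IFN-beta and at 52.1 and 42.7 CPM with it (log2 1.16 ± 0.27, edgeR adjusted p = 0.34). With SPT6 siRNA it stood at 30.3 CPM without IFN-beta and at 66.7 and 52.9 CPM with it. Tapbpl, which encodes the tapasin-related editor TAPBPR, stood at 8.71 CPM without IFN-beta and at 19 and 12.9 CPM with it (log2 0.87 ± 0.35, edgeR adjusted p = 0.599). Under both siRNAs all treated values of both genes lay above the untreated ones. The chaperone genes Calr (0.25 ± 0.25), Canx (0.18 ± 0.26) and Pdia3 (0.06 ± 0.21) showed log2 differences within their errors. Hspa5, of the same list, stood higher with IFN-beta, at 701 CPM untreated and a mean of 983 ± 68.8 CPM (SD, n = 2) under control siRNA. Its log2 differences from the untreated library were 0.56 and 0.41 in replicates 1 and 2.

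The body of the proteasome showed small differences of one sign under control siRNA. All 11 other subunits of the 20S core were above 0, with a median of 0.32 and a highest value of 0.60, and all 18 subunits of the 19S cap were above 0, with a median of 0.40 (49.4% of all genes were above 0). These differences share 1 untreated library, and in replicate 1 alone 1 of the 11 and 3 of the 18 were below it. None of these was called by edgeR (0.137% of all genes). At an unadjusted p under 0.05 there were 0 of the 20S and 2 of the 19S subunits, against 1086 of all 13185 genes tested. Under SPT6 siRNA the medians were 0.11 and 0.08, with 9 of 11 and 15 of 18 above 0 (50.7% of all genes). In replicate 1 alone 11 of the 11 and 14 of the 18 were above the untreated library. In replicate 2 alone 4 of the 11 and 13 of the 18 were. The activator genes Psme1 and Psme2 encode the interferon-inducible 11S cap. Psme2 stood at 43.0 CPM without IFN-beta and at 94.4 and 66.7 CPM with it (log2 0.90 ± 0.35, edgeR adjusted p = 0.585), and Psme1 at 46.3 CPM untreated and at 84.5 and 52.7 CPM (log2 0.57 ± 0.42, edgeR adjusted p = 0.75). Both were above the untreated library in both replicates, as was the assembly factor gene Pomp, at 90.7 CPM without IFN-beta and 123 and 138 CPM with it. Among 8 cytosolic peptidases the median was 0.21, and Lap3, which trims peptides after the proteasome, had a log2 difference of 0.58 ± 0.19 (edgeR adjusted p = 0.522).

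The transcription factors that act on these promoters held the 1 called gene of all these lists. Irf9, a subunit of the factor that binds interferon-stimulated elements, rose from 6.16 CPM to 67.4 and 47.9 CPM with IFN-beta under control siRNA (log2 3.22 ± 0.36, 9.34-fold, edgeR adjusted p = 0.0436). The call was lost with limma-voom (adjusted p = 0.127), with a filter of at least 10 counts in every library (edgeR adjusted p = 0.0633) and without replicate 1 of the control group (edgeR adjusted p = 0.0693). With SPT6 siRNA it stood at 5.03 CPM without IFN-beta and at 49.9 and 38.5 CPM with it (log2 3.13 ± 0.37, edgeR adjusted p = 0.071). Stat2 stood at 29.7 CPM untreated and at 273 and 193 CPM after IFN-beta under control siRNA (log2 2.97 ± 0.37, edgeR adjusted p = 0.0806), and Irf1 at 30.2 CPM untreated and at 90.4 and 91.9 CPM after IFN-beta (log2 1.59 ± 0.22, edgeR adjusted p = 0.105). In Irf9, Stat2 and Irf1 both treated libraries were far above the untreated one. Over the 14 factors the median was 0.12. Of the genes of the constitutive promoter complex, Nfya had a difference within its error (0.25 ± 0.27). Rfx5 was fitted at -0.04 ± 0.49, with opposite signs in replicate 1 (0.43) and replicate 2 (-0.73). Class II presentation genes, a comparison for class I, had 4 tested members of 11, all below 0 under control siRNA (-0.78 to -0.28), and the class II coactivator gene Ciita stood at 0.771 to 1.74 CPM in all libraries.

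Between the siRNA groups with IFN-beta, edgeR called no gene of these lists (0% of all genes). The medians were -0.24 for the other heavy chain genes, 0.08 for the loading genes, -0.11 for the 20S subunits, -0.19 for the 19S subunits and -0.24 for the transcription factors, against -0.02 over all genes. Irf9 differed by -0.38 ± 0.24 (edgeR adjusted p = 0.566). At an unadjusted p under 0.05 there were 5 of the 89 tested genes of these lists (5.62%, against 11.7% of all genes): Psmd7, Psmd8, Npepps, Uggt1 and H2-DMa. Psmd7, a 19S subunit gene, stood at 132 and 178 CPM in the control group, against 100 and 98.6 CPM in the SPT6 siRNA group (log2 -0.64 ± 0.19, edgeR adjusted p = 0.35). Uggt1, which encodes the enzyme that reglucosylates misfolded glycoproteins, stood at 250 and 293 CPM against 370 and 474 CPM (log2 0.64 ± 0.20, edgeR adjusted p = 0.359). H2-DMa, of the class II peptide exchange factor, stood at 11.3 and 6.11 CPM against 18.2 and 26.5 CPM (log2 1.37 ± 0.35, edgeR adjusted p = 0.319). Psmd8, another 19S subunit gene, and Npepps, a cytosolic aminopeptidase gene, were above control in both SPT6 siRNA libraries, with log2 differences of 0.43 ± 0.17 and 0.46 ± 0.18 (edgeR adjusted p = 0.401 and 0.406). Cd68, the highest of the antigen presenting cell markers, stood at 2.71 and 2.19 CPM against 7.74 and 9.91 CPM.

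**Figure D5:**
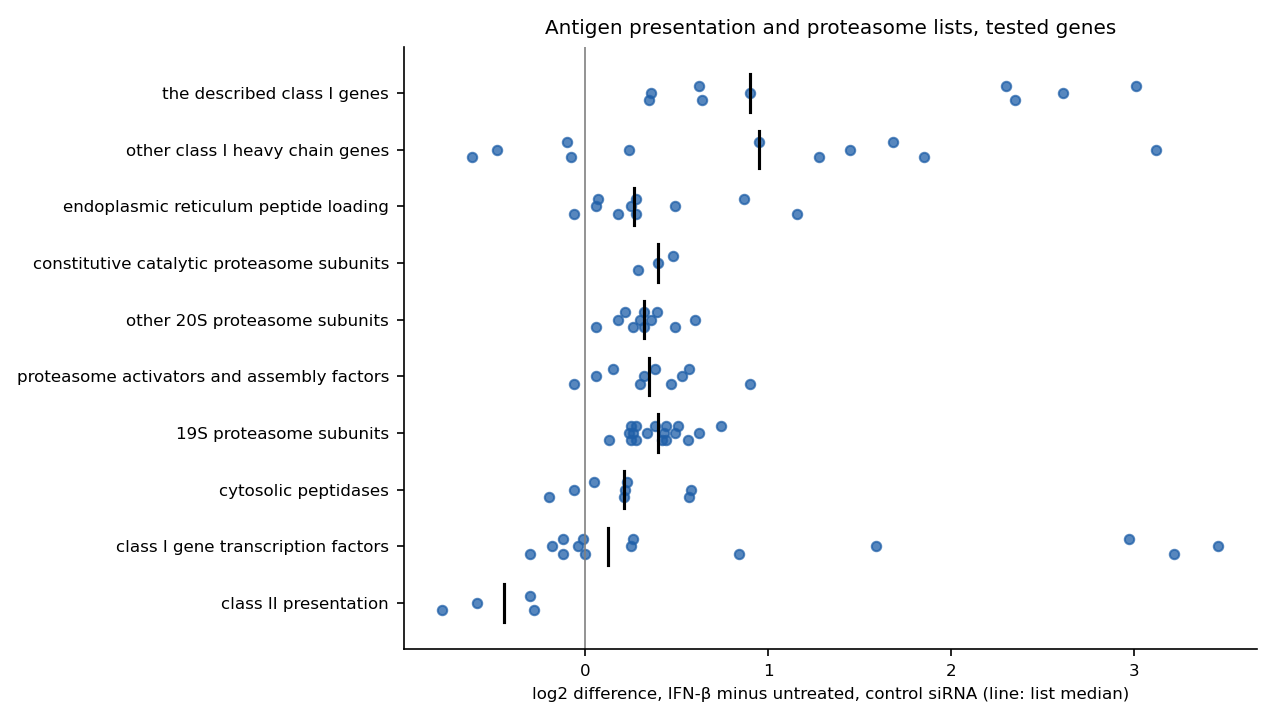
Log2 difference between IFN-beta and untreated libraries with control siRNA (x axis) for every tested gene of 10 lists (y axis); each point is a gene, offset vertically for visibility, and each line a list median. The described genes have a median of 0.90 and the other class I heavy chain genes of 0.95, and all points of the 20S and 19S lists lie between 0 and 0.74.

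The average profile of the 9 tested members, each centred on its own mean log2 CPM, was -0.90 in the untreated control library, -0.72 in the untreated SPT6 siRNA library, 0.86 and 0.14 in replicates 1 and 2 with control siRNA and IFN-beta, and 0.57 and 0.05 in those with SPT6 siRNA and IFN-beta. B2m followed this average most closely (root mean square log2 difference 0.34 over 6 libraries) and Tap1 least (0.70), with Tap1 moving further in the same direction. Outside the list, the genes closest to the average were Ogfr (0.11), Trim56 (0.15), Tcirg1 (0.15), Tor1aip2 (0.17) and Myd88 (0.18), over the same 6 libraries. Ogfr stood at 81.4 and 91.4 CPM in the untreated control and SPT6 siRNA libraries, at 252 and 179 CPM in replicates 1 and 2 with control siRNA and IFN-beta, and at 192 and 152 CPM with SPT6 siRNA and IFN-beta. Ogfr was picked for its likeness over these libraries, so its lower level in replicate 2 than in replicate 1 is not a separate observation. This likeness is a description of 6 libraries.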

How the data were processed

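The deposited values are whole-number counts per gene symbol, not normalised, in 6 libraries of NIH3T3 RNA, which the labels' protocols describe as paired-end HiSeq2000 runs. TopHat2 2.1.0, HTSeq 0.6.1p1, DESeq2 and the builds mm10 and GRCm38 appear in the submitters' processing notes, without roles. Which annotation was counted, and whether by strand, is not given in the sources used here. The 5 lines naming no gene stayed out of library sizes and tests: 33.8% to 37.5% of reads had no feature, 0.326% to 0.384% were ambiguous and 27.9% to 31.3% did not align uniquely, so genes with near-identical copies are uncertain.

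The counts were analysed in R 4.3.3. Genes passing filterByExpr by group (count minimum 10) were kept. edgeR 4.0.16 was used with TMM factors and robust quasi-likelihood tests on 4 group means over 6 libraries (2 residual degrees of freedom), without a replicate block, with Benjamini-Hochberg adjustment over 13185 genes at 0.05. The SE of a log2 difference is its size divided by the square root of F. DESeq2 1.42.0 and limma-voom (limma 3.58.1), other scaling factors, other count filters, a block and leaving out each IFN-beta library were alternatives. The untreated pair was not tested. For differences within a replicate number, log2 CPM had a prior count of 2. A gene at 0 was given a floor of 3 counts, and counting intervals are exact 95% intervals that cover counting error only. Same-group libraries were not duplicates (chi-square per degree of freedom 39.4 and 34.7). The script was tested on simulated counts.

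Transcript lengths, positions and coding sequences came from GENCODE for GRCm38, which matched 22750 of 24062 symbols (94.5%). The transcript with the longest coding sequence stood for each gene. Promoters came from RefSeq (GRCm38.p6). Identities are of coding sequence, since protein sequences were not used here. The members and the gene lists were chosen with earlier results of these data known. Named genes were Supt6, the members, up to 4 genes per list with the smallest p in the response with control siRNA, up to 2 with the smallest p between siRNAs with IFN-beta, Psmb5, Psmb6, Psmb7 and the 5 genes nearest the members' average profile among those averaging a log2 CPM of at least 3. Calr, Canx, Pdia3, Rfx5, H2-Q1 and the markers that were highest or at 0 were added after their values were seen. Some genes that this rule names are not reported here.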

Additional observations from a re-analysis of the deposited data

Results flagged for a closer look

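In 4 members the SPT6 siRNA library was above the control library without IFN-beta and below it in both replicate numbers with IFN-beta. This opposite sign is what set them apart, and it was seen in 8.13% of all genes tested. For Psmb10 the log2 difference of SPT6 siRNA from control siRNA was 0.54 untreated, then -0.51 and -0.46 in numbers 1 and 2 with IFN-beta. For Tap2 it was 0.28, then -0.51 and -0.43. For Tap1 it was 0.01, then -0.60 and -0.43, and for B2m 0.08, then -0.23 and -0.01. The untreated value of Tap1 and the second IFN-beta value of B2m are close to 0. edgeR's test of the difference of the responses gave an adjusted p of 1 for each of the 4 genes, so none was called.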

How the results depend on the processing

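Under control siRNA edgeR called 18 genes, against 77 without a count filter, 7 with at least 10 counts in every library, 204 with DESeq2, 5 with limma-voom and 16 to 52 without 1 library (52 without SPT6 siRNA replicate 1, 45 without SPT6 siRNA replicate 2). Under SPT6 siRNA it called 6, against 12 with library size only, 46, 3, 129 and 0 in the same order, and 9 to 25 without 1 library (25 without SPT6 siRNA replicate 2, 14 without either control replicate). Between siRNAs with IFN-beta it called 0, against 66 without a count filter and 62 with DESeq2. Of the members, 1 (Nlrc5) was called under control siRNA without a filter, and DESeq2 called 4 and 2 in the IFN-beta responses. The cause of these differences was not tested. Library size only took the median of all genes from -0.01 to -0.10 under control siRNA and from -0.02 to 0.07 between siRNAs, and it turned Supt6 under control siRNA to -0.02.

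Other directions turned when 1 library was left out, and the ranges here are over the libraries left out in turn. Between siRNAs with IFN-beta, H2-K1 ran from -0.32 to 0.50, B2m from -0.35 to 0.14, Tapbp from -0.19 to 0.36, Nlrc5 from -0.37 to 0.22, Psmb9 from -1.35 to 0.02, Psmb10 from -1.01 to 0.04 and Psmb5 from -0.30 to 0.14. H2-K1 was also at -0.29 without control replicate 2. In the difference of responses, H2-K1 ran from -0.20 to 0.64, H2-D1 from -0.43 to 0.08, B2m from -0.43 to 0.07, Tapbp from -0.49 to 0.06, Nlrc5 from -0.46 to 0.15 and Psmb9 from -1.10 to 0.30. Among these, H2-K1 was -0.15 without control replicate 2, and Psmb9 was 0.10 without SPT6 siRNA replicate 2. In the responses, H2-K1 under control siRNA ran from -0.10 to 0.69, and under SPT6 siRNA H2-D1 ran from -0.02 to 0.29 and Tap2 from -0.26 to 0.43. Tap1, Nlrc5, Psmb9 and Psmb10 stayed above 0 in both responses under every alternative run, lowest at 1.07 (Psmb10 under SPT6 siRNA).

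The labels do not say that replicate numbers pair libraries, and only 2 pairs exist with IFN-beta. Deviations of same-numbered libraries correlated at 0.56 over 13185 genes. With the replicate number as a block, edgeR called 957 genes and 8 members under control siRNA (7.26% of genes), 545 and 5 under SPT6 siRNA (4.13%), 2638 and 5 between siRNAs (20% of genes; H2-D1 above, Tap1, Tap2, Psmb9 and Psmb10 below) and 4 and 0 for the difference of responses (0.0303%). A fit over 3 matched pairs, added after the data were seen, called 3247 genes and 3 members (24.6% of genes): H2-D1 at 0.56, Tap1 at -0.39 and Psmb9 at -0.57. There Supt6 was at -0.86 (edgeR adjusted p = 5.59e-06), H2-K1 was at 0 and Psmb5 at 0.13. Psmb8 had at most 8 counts in a library, too few to be tested at this depth.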
